A study of Mus musculus with 10 samples.

Results

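The genes described here build, move and switch on motile cilia: 37 mouse genes chosen by symbol, of 49315 genes in the deposited count table. All 37 symbols had a row in the table, and all 37 passed the filter on low counts that left 17080 genes to test. The RNA came from mouse brain, from a dissected layer that the labels call dDG DGC, in a study whose title concerns cocaine reward and hippocampal learning. There were 10 male C57 BL/6 mice, each giving 1 poly(A) RNA library: 5 mice received cocaine and 5 received saline, all in libraries named for self-administration. Strain, sex and dissection were thus shared by both groups, and the age of the mice, the dose and the time since the last session were not given in the sources used here. At issue is whether the RNA of these genes differed between the cocaine and the saline mice.

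A motile cilium is a hair-like projection with a core of microtubules, the axoneme, in which a ring of doublet microtubules surrounds a central pair. Dynein motors on the doublets make them slide, and radial spokes and the central apparatus turn that sliding into a beat. In the brain, ependymal cells that line the ventricles carry tufts of such cilia and move the cerebrospinal fluid, and the epithelium of the choroid plexus, which makes that fluid, is also ciliated. Neurons and astrocytes, by contrast, usually carry a single immotile primary cilium. Foxj1 and the Rfx factors are the transcription factors best known for switching on motile cilia genes.

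Total counts ran from 34991548 to 46481533 per library. Levels are given as CPM, the count of a gene relative to the TMM-scaled total of its library, and a log2 fold change is always cocaine over saline. The 10 granule cell markers were all detected. Prox1, the transcription factor of dentate granule cells, stood at 315 ± 85.5 CPM in the cocaine and 361 ± 44.5 CPM in the saline libraries, and C1ql2, a secreted synaptic protein of the same cells, at 325 ± 65.7 and 359 ± 72.4 CPM (n = 5 each, SD). Of the libraries, cocaine replicate 5 lay farthest out on the first principal component of all genes tested (24.6% of the variance), at -54.2. Next on that side were cocaine replicate 1, at -27.9, and saline replicate 3, at -12.7. The others lay between -3.09 and 25.2.

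Most of the motile cilia genes had higher mean levels with cocaine, but none passed the test. Of the 37, 34 (91.9%) had a positive log2 fold change, as did 53.6% of all genes tested, and their median was 0.70 on the log2 scale, beside 0.02 over all genes. In edgeR's quasi-likelihood test 0 of the 37 passed an adjusted p of 0.05, as did 0 of all 17080 genes (0%). The smallest adjusted p among the 37 was 0.504. At an unadjusted p under 0.05, 3 of the 37 were higher with cocaine, Foxj1, Cfap65 and Ccdc39, and 0 were lower. The higher direction thus held 8.11% of the members, beside 5.58% of all genes tested, and the lower direction held 3.33% of all genes. The 5 cocaine libraries lay wholly above or below the 5 saline libraries in 0 of the 37 members, while 0.773% of all genes did so upward and 0.609% downward. In these bulk samples, a change in the number of cells of a type and a change in RNA per cell cannot be told apart.

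The same few libraries were high for gene after gene. In 22 of the 37 members the 3 highest of the 10 libraries were cocaine replicate 1, cocaine replicate 5 and saline replicate 3, in any order. The same held for 2.96% of all genes tested. Cocaine replicate 5 was the highest library for 18 members and cocaine replicate 1 for 12, and of all genes tested 24.4% and 11.1% were highest in these libraries. The lowest library was saline replicate 5 for 17 members and saline replicate 1 for 8. The share of all genes lowest in these libraries was not computed, so these counts have no background to be read against.

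**Figure D1:**
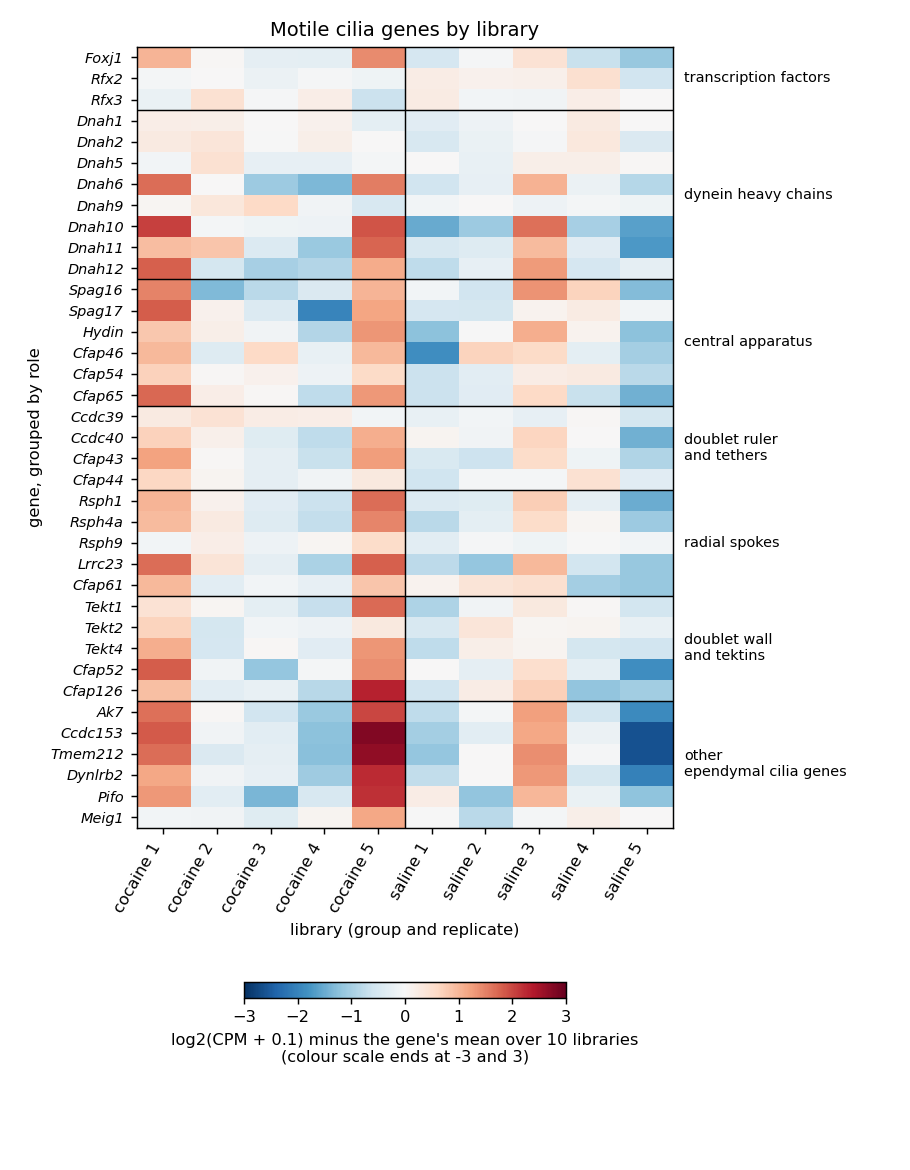
The heatmap shows the level of each of the 37 motile cilia genes (rows, grouped by role) in each of the 10 libraries (columns), as the difference in log2(CPM + 0.1) from that gene's mean over the libraries. Cocaine replicates 1 and 5 and saline replicate 3 are the 3 highest libraries for 22 of the 37 genes.

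These 3 libraries were also the highest in RNA of the choroid plexus. The 18 choroid plexus markers, each of them detected, summed to 2830 and 4360 CPM in cocaine replicates 1 and 5 and to 1870 CPM in saline replicate 3. The other cocaine libraries had 1120, 523 and 368 CPM, and the other saline libraries 819, 795, 600 and 317 CPM. Ttr, the transport protein that is the most abundant of the markers, stood at 2070, 754, 267, 41.4 and 3510 CPM in cocaine replicates 1 to 5 and at 505, 509, 1330, 346 and 73.9 CPM in saline replicates 1 to 5. In the libraries with the lowest sums, another marker, Enpp2, was the largest single part. It stood at 233 CPM in cocaine replicate 4 and 148 CPM in saline replicate 5, and in every other library it lay below Ttr. Of the 18 markers, 16 had the same 3 highest libraries as the 22 cilia genes. The part of this tissue in the cilia result was not tested.

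Without these 3 libraries, a choice made after the data were seen, 3 cocaine and 4 saline libraries were left. The median log2 fold change of the members was then 0.14, beside -0.007 over all genes tested, with 28 above a fold change of 1 and 9 below. The fold change was smaller in size for 29 of the 37 and turned direction for 10. The libraries left out were the 3 highest for 22 of the members and included cocaine replicates 1 and 5. A fall in the fold change of those members was therefore partly set by the choice. The same counts over all genes were not made. The members higher at an unadjusted p under 0.05 were again 3, Ccdc39, Dnah10 and Dnah9 (8.11%), where 7.04% of all genes tested were higher at that level and edgeR called 0 over all genes.

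**Figure D2:**
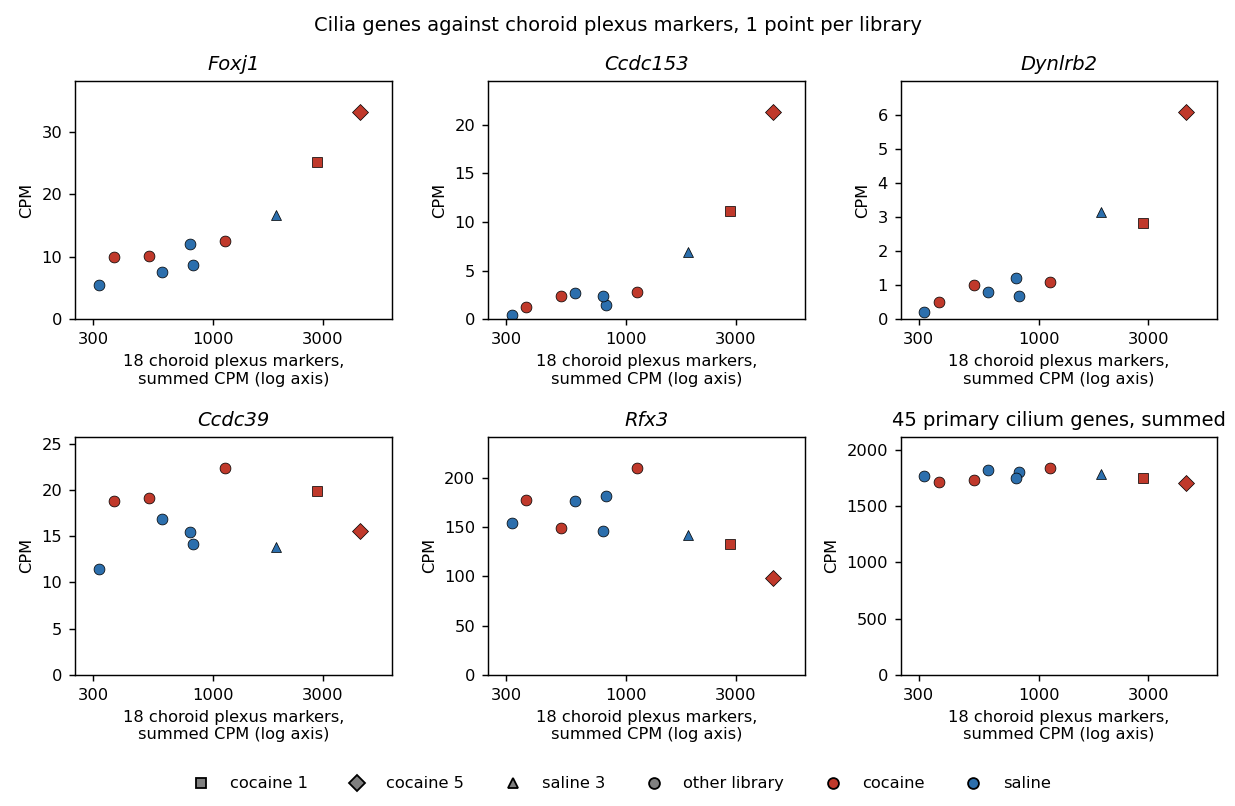
Each panel plots a cilia gene or group (vertical axis, CPM) against the summed CPM of the 18 choroid plexus markers (horizontal log axis) for the 10 libraries, coloured by group. Cocaine replicates 1 and 5 and saline replicate 3, with 2830, 4360 and 1870 CPM of the markers, lie farthest right on the horizontal axis. The next library, cocaine replicate 2, stands at 1120 CPM.

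Among the transcription factors, Foxj1, the forkhead factor that commands the motile cilia programme, stood at 25.2, 12.5, 10.2, 9.93 and 33.1 CPM in cocaine replicates 1 to 5. In saline replicates 1 to 5 it stood at 8.64, 12, 16.6, 7.64 and 5.56 CPM. Cocaine replicates 1 and 5 lay above every saline library, and the other 3 cocaine libraries lay inside the saline range. Foxj1 (ENSMUSG00000034227, chromosome 11 from 116330704 to 116335399, mm10, GENCODE M21) averaged 18.2 ± 10.4 CPM in the cocaine and 10.1 ± 4.31 CPM in the saline libraries (n = 5 each, SD). The log2 fold change was 0.85 (SE 0.37), with 0.54 as the edgeR adjusted p and 0.135 as the exact permutation p, two-sided. Without the 3 libraries highest in choroid plexus markers the means were 10.9 and 8.46 CPM, a log2 fold change of 0.36.

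Rfx3 and Rfx2, factors that bind the X-box of cilia promoters, did not share this pattern. Rfx3 had the highest level per length of all the members, at 14.2 CPM per kilobase of exon, and stood at 133, 210, 149, 177 and 98.7 CPM with cocaine and 181, 146, 142, 176 and 154 CPM with saline. Its lowest library was cocaine replicate 5, the library in which Foxj1 was highest, and its log2 fold change was -0.05 (SE 0.16). Rfx2 averaged 3.83 ± 0.211 and 4.43 ± 1.1 CPM with cocaine and saline (n = 5 each, SD). As background, Rfx3 is also expressed by cells without motile cilia.

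Dynein heavy chains are the motor subunits of the arms. Of the 8 members, 7 had a positive log2 fold change, the median being 0.41. Dnah5, Dnah9 and Dnah11 belong to the outer arms and Dnah1, Dnah2, Dnah6, Dnah10 and Dnah12 to the inner arms. The smallest p was that of Dnah2 (ENSMUSG00000005237, chromosome 11 from 69420809 to 69549110). It stood at 8.12, 8.63, 6.69, 7.68 and 6.83 CPM with cocaine and 4.83, 5.90, 6.58, 8.43 and 4.97 CPM with saline. All 5 cocaine libraries lay above 4 of the saline libraries, with saline replicate 4 inside the cocaine range. The log2 fold change of Dnah2 was 0.30 (SE 0.16), with 0.603 as the edgeR adjusted p and 0.0873 as the exact permutation p.

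The outer-arm chain Dnah9 averaged 18.7 ± 5.20 CPM in the cocaine and 16.1 ± 0.659 CPM in the saline libraries (n = 5 each, SD). Its highest library was cocaine replicate 3, at 25.7 CPM, and its lowest was cocaine replicate 5, at 12.3 CPM. Dnah5, whose product sits in the same arm, averaged 5.48 ± 1.26 and 5.68 ± 0.62 CPM, and Dnah1, an inner-arm chain, 12.2 ± 1.61 and 11.5 ± 1.84 CPM. These 3 chains did not follow the libraries high in choroid plexus markers. Dnah6, Dnah11 and Dnah12 did, with cocaine replicates 1 and 5 and saline replicate 3 as their highest libraries, and with log2 fold changes of 0.70, 0.96 and 0.51 (SE 0.60, 0.60 and 0.67).

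Dnah10, an inner-arm chain described in full because of its values, had cocaine levels of 4.93, 1.07, 1.01, 0.99 and 4.41 CPM. Its saline levels were 0.327, 0.471, 3.72, 0.514 and 0.294 CPM. Every cocaine library stood above every saline library except saline replicate 3. Dnah10 (ENSMUSG00000038011, chromosome 5 from 124725085 to 124834308) had a log2 fold change of 1.20 (SE 0.74), with 0.647 as the edgeR adjusted p. The exact permutation p was 0.127. The log2 fold change of Dnah10 was 0.80 without cocaine replicate 1, 0.89 without cocaine replicate 5 and 2.62 without saline replicate 3. Without the 3 libraries highest in choroid plexus markers Dnah10 averaged 1.02 CPM in 3 cocaine libraries and 0.401 CPM in 4 saline libraries. That is a log2 fold change of 1.34 (SE 0.35), with 0.245 as the edgeR adjusted p. Leaving out saline replicate 3 fixed in advance that the groups left did not overlap in Dnah10, so this value is no further support.

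**Figure D3:**
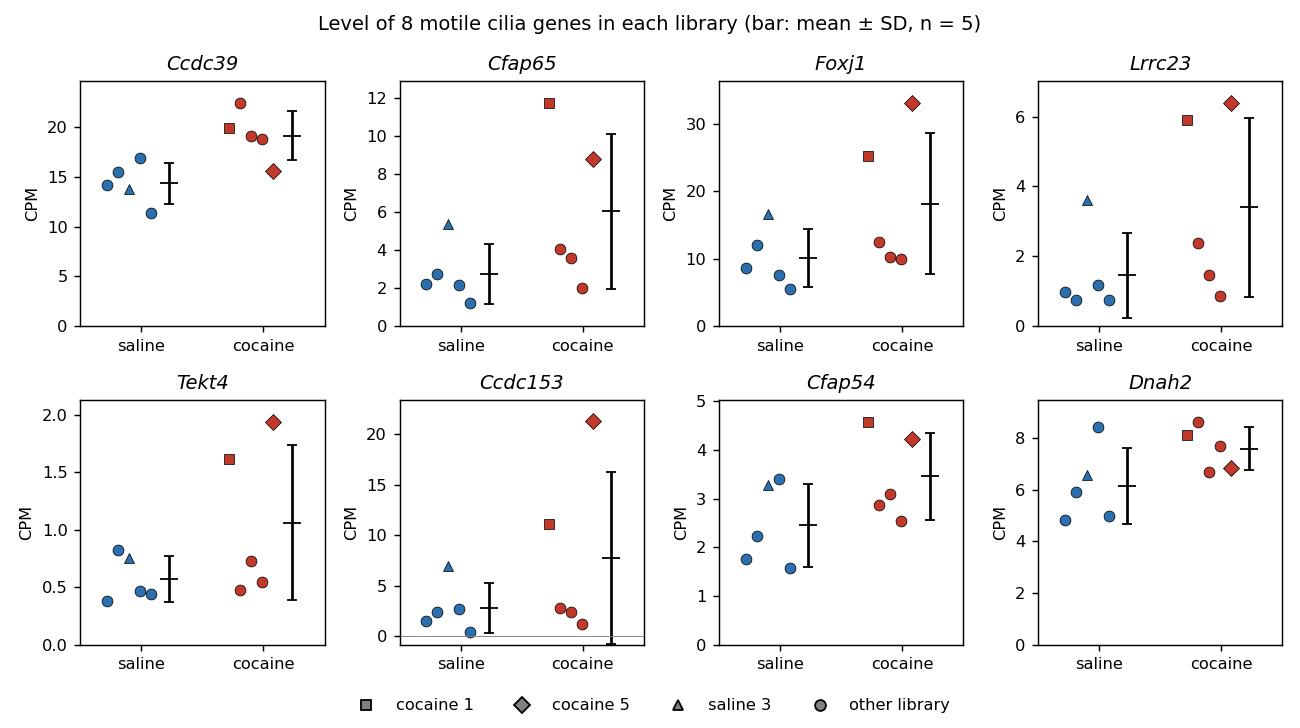
Each of the 8 panels shows a fully described motile cilia gene, with the CPM of every library as a point in the cocaine and the saline group and the group mean ± SD (n = 5). Squares, diamonds and triangles mark cocaine replicate 1, cocaine replicate 5 and saline replicate 3. In Lrrc23 these stand at 5.90, 6.38 and 3.61 CPM, above the other libraries, and in Ccdc39 the groups share the range between 15.6 and 16.9 CPM.

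The central apparatus is the structure around the central microtubule pair, and all 6 of its members here had a positive log2 fold change, the median being 0.56. Cfap65, a gene needed for sperm flagella and grouped with these genes here, stood at 11.7, 4.06, 3.57, 2.01 and 8.80 CPM with cocaine and at 2.19, 2.75, 5.35, 2.18 and 1.22 CPM with saline. Cocaine replicates 1 and 5 lay above every saline library, and the lowest cocaine library, replicate 4, lay below 4 of the 5 saline libraries. Cfap65 (ENSMUSG00000047021, chromosome 1 from 74902071 to 74935599) had a log2 fold change of 1.13 (SE 0.46), with 0.53 as the edgeR adjusted p and 0.127 as the exact permutation p. Without the 3 libraries it was 0.62.

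Cfap54, a subunit of a central pair projection, had cocaine levels of 4.58, 2.87, 3.09, 2.53 and 4.23 CPM. In saline it was measured at 1.76, 2.23, 3.29, 3.40 and 1.57 CPM, so that saline replicates 3 and 4 lay inside the cocaine range. Cfap54 (ENSMUSG00000020014, chromosome 10 from 92775619 to 93081618) had a log2 fold change of 0.49 (SE 0.26), with 0.603 as the edgeR adjusted p and 0.111 as the exact permutation p. Hydin, a large central pair protein, averaged 2.09 ± 1.22 and 1.52 ± 1.11 CPM, and Cfap46 2.63 ± 1.11 and 1.71 ± 1.14 CPM (n = 5 each, SD). Spag16 and Spag17, a pair of central apparatus scaffold genes, averaged under 1 CPM in both groups. Spag16 had a log2 fold change of 0.10, or -0.83 without the 3 libraries.

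Ccdc39 and Ccdc40 form the ruler along the doublets that sets where spokes and inner arms attach. Ccdc39 (ENSMUSG00000027676, chromosome 3 from 33812362 to 33844310) had the smallest p of all 37. It stood at 19.9, 22.4, 19.1, 18.8 and 15.6 CPM with cocaine and at 14.2, 15.5, 13.8, 16.9 and 11.4 CPM with saline. Of the cocaine libraries, 4 lay above every saline library, and cocaine replicate 5 lay below saline replicate 4. The means were 19.1 ± 2.44 and 14.3 ± 2.03 CPM (n = 5 each, SD). The log2 fold change was 0.42 (SE 0.12), with 0.504 as the edgeR adjusted p and 0.0159 as the exact permutation p, where 0.00794 is the smallest this design can give. Without the 3 libraries Ccdc39 averaged 20.1 and 14.5 CPM, a log2 fold change of 0.47 (SE 0.14).

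The exons of Ccdc39 overlap those of the gene Ttc14 on the opposite strand, over 1256 bases or 16.9% of Ccdc39's exon length. Ttc14 was the more abundant gene, at 143, 143, 126, 129 and 53.4 CPM with cocaine and 77.4, 81.3, 80.3, 110 and 82.2 CPM with saline. Both genes had cocaine replicate 5 as the lowest cocaine library and saline replicate 4 as the highest saline library. Per gene annotation, exons of 14 of the 37 members overlap another gene, in 5 of them a protein-coding one. The strand setting of the counting is not given in the sources used here, and reads of the 2 genes over the shared bases then cannot be told apart. Ccdc40, the partner of Ccdc39 in the ruler, did not share its levels. It averaged 2.4 ± 1.26 CPM in the cocaine and 1.89 ± 0.861 CPM in the saline libraries (n = 5 each, SD), with cocaine replicates 1 and 5 and saline replicate 3 as the highest libraries. Cfap43 and Cfap44, which tether the inner arms, had log2 fold changes of 0.77 and 0.24 (SE 0.41 and 0.22).

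Radial spokes reach from the doublets to the central apparatus, and all 5 members had a positive log2 fold change, the median being 0.76. Lrrc23, a spoke protein, stood at 5.90, 2.37, 1.46, 0.867 and 6.38 CPM with cocaine and at 0.982, 0.744, 3.61, 1.18 and 0.759 CPM with saline. Cocaine replicates 1 and 5 lay above every saline library, and saline replicate 3 lay above the other 3 cocaine libraries. Lrrc23 (ENSMUSG00000030125, chromosome 6 from 124769863 to 124779727) had a log2 fold change of 1.21 (SE 0.57), with 0.571 as the edgeR adjusted p and 0.151 as the exact permutation p. It was 0.77 without the 3 libraries and 1.89 without saline replicate 3.

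The spoke head genes were uneven. Rsph1 averaged 7.07 ± 4.91 CPM in the cocaine and 3.97 ± 2.21 CPM in the saline libraries, and Rsph4a 3.00 ± 1.89 and 1.76 ± 0.855 CPM (n = 5 each, SD), with the 3 highest libraries that most members shared. Rsph9 was the flattest spoke gene, at 11, 13.3, 10.4, 12.2 and 17.1 CPM with cocaine and 9.27, 11.3, 10.7, 11.6 and 10.9 CPM with saline. Its log2 fold change was 0.25 (SE 0.13), and cocaine replicates 2, 4 and 5 lay above every saline library. Cfap61, of the complex at the base of the spokes, had a log2 fold change of 0.45 (SE 0.41).

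Tektins run as filaments inside the doublet wall. With Cfap52, an inner protein of the wall, and Cfap126, which acts where cilia dock, they make 5 members, all with a positive log2 fold change and 0.89 as the median. Tekt4 was a low gene, at 1.62, 0.474, 0.731, 0.545 and 1.94 CPM with cocaine and 0.378, 0.819, 0.752, 0.465 and 0.441 CPM with saline. Cocaine replicates 1 and 5 were the only libraries above 1 CPM, and the other 8 overlapped. Tekt4 (ENSMUSG00000024175, chromosome 17 from 25454615 to 25476602) had a log2 fold change of 0.89 (SE 0.43), with 0.579 as the edgeR adjusted p and 0.175 as the exact permutation p, and 0.14 without the 3 libraries. Tekt1 averaged 2.90 ± 2.25 and 1.75 ± 0.579 CPM and Tekt2 1.00 ± 0.36 and 0.915 ± 0.221 CPM with cocaine and saline (n = 5 each, SD). Cfap52 and Cfap126 both had a log2 fold change of 1.08 (SE 0.61 and 0.59).

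Of the roles, the 6 other ependymal cilia genes had the largest share of members with the 3 libraries highest, 5 of 6 (83.3%). The radial spoke genes were close, at 4 of 5 (80%). The 6 other ependymal cilia genes summed to 25, 7.83, 6.35, 4.51 and 46.3 CPM with cocaine and 5.31, 6.97, 19, 7.35 and 2.55 CPM with saline. Ccdc153, a coiled-coil gene of ependymal cilia, stood at 11.1, 2.80, 2.42, 1.24 and 21.3 CPM with cocaine and 1.46, 2.43, 6.97, 2.67 and 0.416 CPM with saline. Cocaine replicates 2, 3 and 4 lay inside the saline range. Ccdc153 (ENSMUSG00000070306, chromosome 9 from 44240676 to 44247306) had a log2 fold change of 1.47 (SE 0.76), with 0.602 as the edgeR adjusted p and 0.262 as the exact permutation p. Without the 3 libraries its means were 2.15 and 1.74 CPM, a log2 fold change of 0.30.

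Ak7, an adenylate kinase of the axoneme, Tmem212, a membrane protein gene used as an ependymal marker, Dynlrb2, a dynein light chain, and Pifo, which acts at the base of the cilium, had log2 fold changes of 0.98, 1.19, 0.91 and 0.98. Their SEs were 0.67, 0.83, 0.69 and 0.73. For Tmem212 the value was 0.04 without the 3 libraries. Meig1, known from sperm development, was the exception to the shared libraries: cocaine replicate 5 stood at 3.02 CPM, and the other 9 libraries lay between 0.695 and 1.47 CPM.

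**Figure D4:**
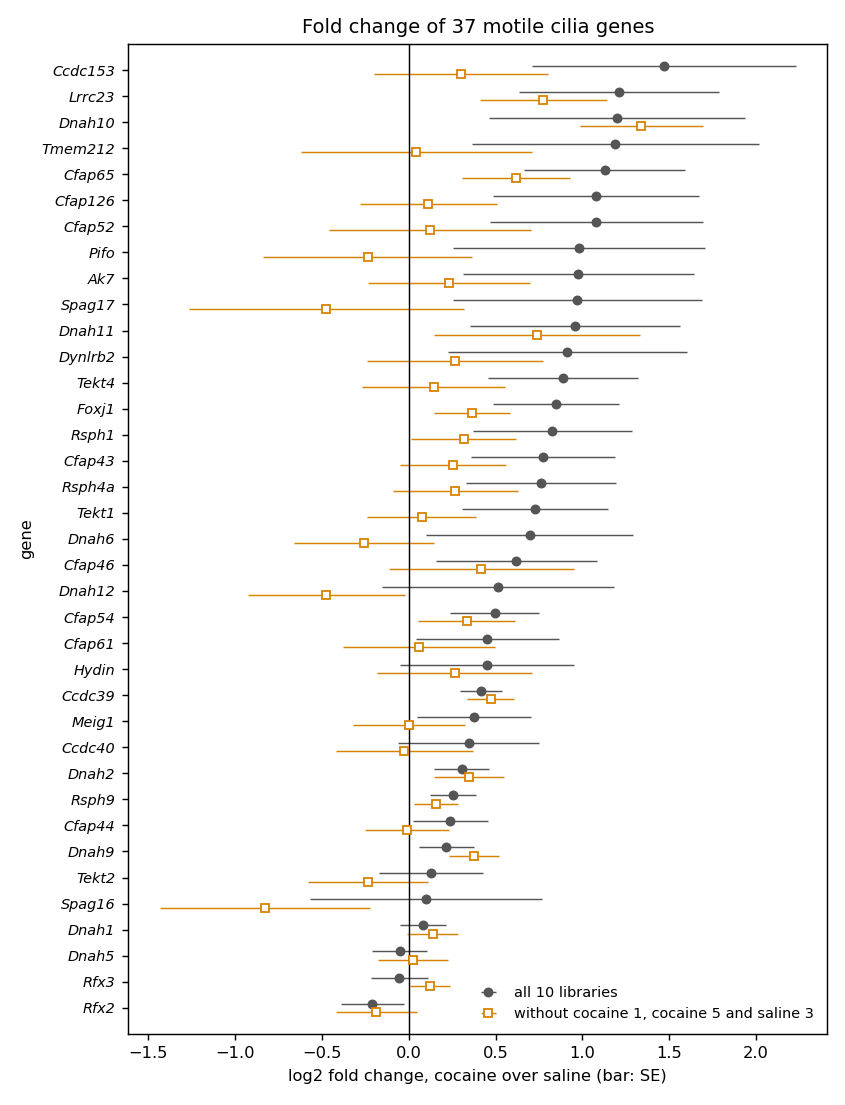
The plot gives the log2 fold change of each of the 37 genes (cocaine over saline, points with bars of 1 SE), in order of size, with all 10 libraries and without the 3 libraries highest in choroid plexus markers. With all libraries the values run from -0.21 to 1.47, and without the 3 libraries 29 of the 37 are smaller in size.

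The members differed in how much their level varied. In 9 members, Rfx2, Rfx3, Dnah1, Dnah2, Dnah5, Dnah9, Ccdc39, Cfap44 and Rsph9, the highest library was 1.54 to 2.36 times the lowest. In the other 28 it was more than 2.4 times the lowest. None of the 9 had cocaine replicate 1, cocaine replicate 5 and saline replicate 3 as its 3 highest libraries. The limit of 2.4 was set after the values were seen.

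Members were also compared with 78 other genes of motile cilia, such as assembly factors and kinesins, of which 72 were tested. Of these, 62 had a positive log2 fold change and 10 a negative one, the median being 0.43. An unadjusted p under 0.05 was reached by 12 higher genes (16.7%) and 0 lower ones, beside 5.58% and 3.33% of all genes tested. At the adjusted threshold edgeR called 0. The 3 with the smallest p each had an edgeR adjusted p of 0.504. Kif9, a kinesin of the central pair, averaged 4.27 ± 1.01 CPM in the cocaine and 2.81 ± 0.60 CPM in the saline libraries, and Zmynd10, a dynein assembly factor, 2.00 ± 0.657 and 1.00 ± 0.493 CPM. Tppp3, a tubulin-binding protein abundant in ciliated cells, averaged 41.7 ± 11.0 and 28.7 ± 5.76 CPM (n = 5 each, SD). In 23 of the 72 the 3 highest libraries were those shared by most members.

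Genes of intraflagellar transport and of the primary cilium, which most cells of the brain carry, did not share the pattern. Of 45 tested, 25 had a positive log2 fold change and 20 a negative one, the median being 0.02, and in 0 of 45 were cocaine replicates 1 and 5 and saline replicate 3 the 3 highest libraries. Their summed level ran from 1700 to 1840 CPM with cocaine and from 1750 to 1820 CPM with saline. Among those with the smallest p were Cluap1, an intraflagellar transport gene, with a log2 fold change of 0.22, and the kinesin motor gene Kif3b, at -0.25 (edgeR adjusted p of 0.523 and 0.566).

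Of 12 genes listed here as ependymal markers outside the axoneme, 10 were tested. All 10 had a positive log2 fold change, the median being 0.37, 0 of them at an unadjusted p under 0.05. In 6 of the 10 the 3 shared libraries were the highest. Mia was at 0 in 9 of the 10 libraries. Mia and Zbbx did not pass the filter. Markers of oligodendrocytes were also higher on average with cocaine: all 12 had a positive log2 fold change, the median being 0.65. An unadjusted p under 0.05 was reached by 12, where 5.58% of all genes tested were higher at that level. Mbp, a main myelin protein, averaged 2560 ± 1050 CPM in the cocaine and 1740 ± 251 CPM in the saline libraries (n = 5 each, SD). The 12 markers summed to 6950, 3920, 5410, 8110 and 10500 CPM with cocaine and 3870 to 5550 CPM with saline. Granule cell markers summed to 1450 and 1380 CPM in cocaine replicates 1 and 5 and to 1890 to 2290 CPM in the other cocaine libraries. In saline they summed to 1660 CPM in replicate 3 and to 2020, 1940, 2350 and 1970 CPM in replicates 1, 2, 4 and 5. The 3 shared libraries were thus the lowest of the 10 in granule cell markers. Of 10 astrocyte markers 0 had a positive log2 fold change (median -0.05), of 10 fibroblast markers 6 (0.13), of 9 markers of stem cells and immature neurons 3 (-0.07) and of the 10 granule cell markers 2 (-0.14). Their part in the cilia result was not tested.

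Promoter windows were examined for motifs of the Rfx and forkhead factors, from 250 bases before to 50 after the start of each gene in RefSeq (GRCm38.p6). Windows were at hand for 32 of the 37 members, Foxj1 not among them. The letters GTTGCC, a single site of the X-box that Rfx factors bind, on either strand, were found in 14 of the 32 (43.8%) and in 14.1% of all 27025 genes in the same table. By window, it was 15 of 40 (37.5%) against 12.5% of 32851. The paired site, GTTNCC and GGNAAC with 0 to 3 bases between them, was found in 1 member, Pifo (3.12%), and in 0.936% of all genes. A paired site can hold a GTTGCC in itself. The forkhead letters GTAAACA on either strand were found in Cfap43 and Ak7 (6.25%) and in 4.05% of all genes. Matches are descriptions of letters and no sites of binding.

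The windows shown are those of the 4 fully described members that hold GTTGCC, and the paired site of Pifo. They are written 5′ to 3′ in the direction of the gene, with capitals for the match on either strand (GGCAAC is the reverse complement of GTTGCC, and in Pifo capitals cover the paired site). Lrrc23 and Tekt4 are at chr6:124779678-124779977 on the minus strand and chr17:25471340-25471639 on the plus strand. Ccdc153 and Dnah10 are at chr9:44240427-44240726 and chr5:124724835-124725134, both on the plus strand, and the second start of Pifo at chr3:106001448-106001747 on the minus strand.
Lrrc23: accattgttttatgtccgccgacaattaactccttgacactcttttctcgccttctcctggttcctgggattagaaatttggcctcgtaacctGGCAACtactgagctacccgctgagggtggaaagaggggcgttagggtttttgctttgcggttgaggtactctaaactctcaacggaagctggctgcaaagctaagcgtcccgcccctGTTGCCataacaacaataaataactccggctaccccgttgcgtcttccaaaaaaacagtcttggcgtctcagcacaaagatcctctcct
Tekt4: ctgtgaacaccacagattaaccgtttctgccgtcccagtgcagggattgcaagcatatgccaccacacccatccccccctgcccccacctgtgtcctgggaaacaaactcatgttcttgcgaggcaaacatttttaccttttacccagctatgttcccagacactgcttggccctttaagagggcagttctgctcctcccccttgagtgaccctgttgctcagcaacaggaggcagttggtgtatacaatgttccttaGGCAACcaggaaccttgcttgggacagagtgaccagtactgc
Ccdc153: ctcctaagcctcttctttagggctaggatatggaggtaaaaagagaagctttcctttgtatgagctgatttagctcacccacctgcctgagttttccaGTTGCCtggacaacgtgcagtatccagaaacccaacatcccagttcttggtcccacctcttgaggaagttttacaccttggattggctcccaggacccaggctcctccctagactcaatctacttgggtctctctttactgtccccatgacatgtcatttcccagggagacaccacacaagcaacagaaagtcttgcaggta
Dnah10: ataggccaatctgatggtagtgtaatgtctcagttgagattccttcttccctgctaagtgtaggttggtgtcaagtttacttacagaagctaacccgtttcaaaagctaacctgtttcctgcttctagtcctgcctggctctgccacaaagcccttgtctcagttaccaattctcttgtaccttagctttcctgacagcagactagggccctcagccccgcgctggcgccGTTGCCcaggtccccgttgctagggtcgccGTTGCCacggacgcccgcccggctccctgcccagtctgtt
Pifo: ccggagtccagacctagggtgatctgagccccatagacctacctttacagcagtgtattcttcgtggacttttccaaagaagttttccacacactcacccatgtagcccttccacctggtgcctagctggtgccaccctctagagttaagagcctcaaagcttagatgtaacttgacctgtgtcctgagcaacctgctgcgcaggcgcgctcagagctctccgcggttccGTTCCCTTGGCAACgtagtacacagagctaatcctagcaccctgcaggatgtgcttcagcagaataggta
Of the 22 members with the shared highest libraries, 18 had a window and 8 of these held GTTGCC, and of the other 15 members 14 had a window and 6 held it. The difference between these groups of members was not tested.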

How the data were processed

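Poly(A) RNA was sequenced from 10 male mice, 5 per group. The authors deposited raw counts per Ensembl gene. The submitters' processing notes name cutadapt, STAR, Cufflinks, HTSeq and mm10; the versions, annotation and strand setting were not given in the sources used here. Of 49315 genes, 48988 matched GENCODE M21, which gave symbols, coordinates and exon lengths. Counts were tested with edgeR 4.0.16 (R 4.3.3): TMM factors, filterByExpr, quasi-likelihood F test, two-sided, Benjamini-Hochberg over 17080 genes; the SE is the log2 fold change over the root of F. Single genes had an exact permutation test over 252 assignments, unadjusted and computed for every member. Replicate pairs within a group differed by a chi-square per degree of freedom of at least 14.8. The member genes and lists were chosen with earlier results of these data known. Full statistics were given for Foxj1 and the 8 smallest p (8 genes in all, Foxj1 among them), 3 genes of each cilia list, leading markers, Ttr and Prox1; Dnah10 and Ttc14 were added after their values were seen. A few genes named by this rule are not reported here. Of the lists, 1 gene had no match. Alternatives were RLE and upper-quartile factors, no filter, DESeq2 1.42.0, limma 3.58.1 voom with sample weights, the replicate number as a block and each library left out; leaving out the 3 libraries highest in choroid plexus markers was added after seeing the data. The code was tested on simulated data.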

Additional observations from a re-analysis of the deposited data

Results flagged for a closer look

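In 74 groups of 5 libraries, 2 for each of the 37 genes, 8 held a library whose gap to its nearest neighbour took more than 0.71 of the group's range. Chance gives about 1 in 20 for independent, normally distributed values. The genes here shared their high libraries, and the share over all genes tested was not computed. The count of 8 can therefore not be read as more than chance gives. Of the 8, 4 concerned saline replicate 3, 2 cocaine replicate 5, 1 cocaine replicate 2 and 1 saline replicate 2.

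In saline replicate 3 the level was 3.72 CPM for Dnah10, where the nearest saline library stood at 0.514 CPM, and 3.31 CPM for Dnah6, next to 1.35 CPM. It was 1.33 CPM for Dnah12, next to 0.397 CPM, and 3.61 CPM for Lrrc23, next to 1.18 CPM. Cocaine replicate 5 stood at 6.8 CPM for Tekt1, next to 2.76 CPM, and at 3.02 CPM for Meig1, next to 1.39 CPM. For Dnah5, cocaine replicate 2 was the highest, at 7.66 CPM, next to 5.3 CPM. For Meig1, saline replicate 2 was the lowest, at 0.695 CPM, next to 1.25 CPM.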

How the results depend on the processing

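Of the 37 genes, 0 were called higher and 0 lower in every alternative run. The count higher at an unadjusted p under 0.05, 3 with all libraries in edgeR, was 8 with no low-count filter, 1 with the replicate block, and 1 to 15 with each library left out. It was 6, 8 and 14 without cocaine replicates 2, 3 and 4, where 6.99%, 4.76% and 4.64% of all genes tested were higher at that level. It was 15 without saline replicate 3 (5.52% of all genes), and 1 without saline replicate 1 or 5 (3.63% and 3.8%). With no filter the share of all genes was 4.85%, and with the block 4.3%. The count lower was 0 with all libraries and 0 to 1 with each left out. DESeq2 gave 4, voom 2, and RLE and upper-quartile factors 3 each. Ccdc39 was among the genes higher at that level in each of these runs. The median log2 fold change was 0.70 with all libraries, 0.24 in voom, 0.51 with the replicate block, and 0.33 (without cocaine replicate 5) to 1.01 (without saline replicate 3) with each library left out; without the 3 libraries highest in choroid plexus markers it was 0.14. Over all genes, DESeq2 called 15 higher and 1 lower, voom 91 and 4, and edgeR without cocaine replicate 5 called 126 and 3, none of them one of the 37. With each library left out, the log2 fold change of Ccdc39 ran from 0.35 to 0.48, of Cfap65 from 0.75 to 1.53, of Foxj1 from 0.52 to 1.1, of Lrrc23 from 0.86 to 1.89 and of Ccdc153 from 0.65 to 2.15. Tekt4 ran from 0.55 to 1.08, Cfap54 from 0.37 to 0.64, Dnah2 from 0.23 to 0.44 and Dnah10 from 0.80 to 2.62. Same-numbered libraries correlated at -0.215 to 0.0291 in their deviations from the group means. Each was lower than its best match to another number, but a best match picked from several is often the higher without pairing. Because no same-numbered correlation exceeded 0.0291, the numbers were not taken to pair mice. A call lost under the block is therefore not read as a weaker effect. Low counts limit many members: 3 averaged under 1 CPM in both groups.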

Other observations

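Levels of 4 genes that act in the making of multiple cilia, picked after their values were seen, were as follows. Gmnc, which acts at the head of that programme, averaged 4.89 ± 1.24 CPM with cocaine and 5.21 ± 1.37 CPM with saline, and Ccno, a cyclin needed to multiply centrioles, 4.49 ± 0.876 and 4.68 ± 1.73 CPM (SD, n = 5). Both were highest outside cocaine replicates 1 and 5: Gmnc was highest in cocaine replicate 2, at 6.85 CPM, and Ccno in saline replicate 5, at 6.81 CPM. Deup1, which acts in the making of centrioles, and Mcidas stood under 1 CPM in every library. Deup1 was highest in cocaine replicate 5, at 0.972 CPM, next to 0.906 CPM in saline replicate 4, and had a log2 fold change of 0.40 (SE 0.47), with 0.814 as the edgeR adjusted p.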
